A study of Solanum lycopersicum with 96 samples.

Results

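The lists of hypo-named genomic regions from seed of Bolstar tomato plants given the elicitor Ina and from seed of Bolstar plants given the elicitor BABA, both in time window 2, were set directly against each other. All regions of both lists were taken, 30071 for Ina and 24151 for BABA, together 54222 of the 237372 regions in the 8 lists of the series. Whole-genome bisulfite sequencing of seed DNA was the assay, and it tells methylated from unmethylated cytosines. The Ina group was labelled genotype Bolstar, treatment Ina_TW2, and the BABA group genotype Bolstar, treatment BABA_TW2. Both groups share the cultivar, the tissue, the time window, and 12 libraries made as 2 libraries for each of 6 replicates, with seed from 6 mother plants per treatment and 10 seeds pooled in an extraction. The sources used here give no doses, no number or spacing of applications, no plant age and no definition of time window 2. The labels count 96 libraries in the series and the series description 90. Untreated Bolstar seed and 5 groups of the cultivar Moneyberg served as further lists. The Moneyberg groups were labelled Control, BABA_TW2, Ina_TW2, BABA_TW3 and MeJA_TW3. These 5 lists therefore mix a control, the same 2 treatments, a further treatment (MeJA) and time window 3. Each group is represented by 1 pooled list, so no value below has a replicate error, no test between the groups was possible, and the read depth behind a region is unknown.

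BABA, beta-aminobutyric acid, is a non-protein amino acid known for priming, a state in which a plant answers a later attack faster or more strongly. Ina is another elicitor of the study, and its labels do not spell the name out. DNA methylation in plants occurs in several cytosine contexts, silences transposable elements, is dense in the gene-poor interior of tomato chromosomes, and can pass through the seed to the next generation, which makes seed of treated mother plants a place to look for a lasting mark. The lists carry names beginning with HYPO but state no methylation level. Phrases such as "only in Ina" therefore say where a base is listed and nothing about more or less methylation.

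The lists covered almost the same amount of sequence in regions of different size. The Ina list covered 453 Mb, or 56.1% of the chromosomes as far as the last listed base, and the BABA list covered 448 Mb, or 55.5%. The Ina regions had a median length of 10.4 kb, and the BABA regions one of 12.5 kb. At or above 50 kb there were 921 Ina and 1398 BABA regions, and the longest were 205 kb and 249 kb. The Bolstar control list lay between them, with 26750 regions, 452 Mb, a median of 11.5 kb and 1155 regions of at least 50 kb. Each region carries a whole-number score that grows with its length and is read here as a number of cytosine sites, a reading taken from the values and not from a stated definition. The score per kb of listed sequence was 17.2 in all 3 Bolstar lists. The lowest score was 71 in the Ina list, 78 in the control list and 85 in the BABA list, so the lists end at different sizes.

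Regions found in only 1 of both lists were far more numerous on the Ina side, and most of them were small. Of the Ina regions, 3224 had no base in the BABA list, which is 10.7% of the list (95% Wilson interval 10.4% to 11.1%). Of the BABA regions, 643 had no base in the Ina list, which is 2.66% (2.47% to 2.87%). The intervals cover counting error over regions only. When regions with a score of 85 or more were kept in both lists, 968 Ina regions (3.6%) and 1005 BABA regions (4.16%) were without a counterpart, so the direction of the genome-wide numbers turned. Ina-only regions then remained the more numerous on 5 of the 12 chromosomes, which were 3, 4, 5, 6 and 9, against all 12 as deposited. When regions of 85 or more were instead set against the other list as deposited, an alternative chosen after seeing the data, the numbers were 968 and 643 and the direction did not turn. With the limit of 85 kept in both lists, 12.8 Mb were listed only in Ina and 24.4 Mb only in BABA, against 24.7 Mb and 19.7 Mb as deposited. The BABA list holds no region below this limit, so the same 968 Ina regions have no base in it as deposited either. The limit cuts through well-filled classes of the Ina list, with 231 regions at a score just below 85 and 256 at 85, whereas the BABA list has 7 regions at 85 and none below.

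The Ina regions under the limit numbered 3170. Of these, 2256 had no BABA base (71.2%) and 914 touched a BABA region. The share without a counterpart fell with the score in both lists. It was 19.2% of Ina and 10.6% of BABA regions with scores of 85 to 99, 4.13% and 5.69% from 100 to 149, 1.05% and 1.20% from 150 to 199, and 0.149% and 0.175% from 200 to 299. The other list was taken as deposited. BABA regions of 85 to 99 thus faced Ina regions down to 71, whereas Ina regions faced no BABA region below 85. At 300 or more, 1 of 7941 Ina regions and 0 of 8221 BABA regions had no base in the other list. If counting error over regions lets a count of 0 stand for up to 3, that BABA share is at most 0.0365%. This limit says nothing about variation between replicates.

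**Figure D1:**
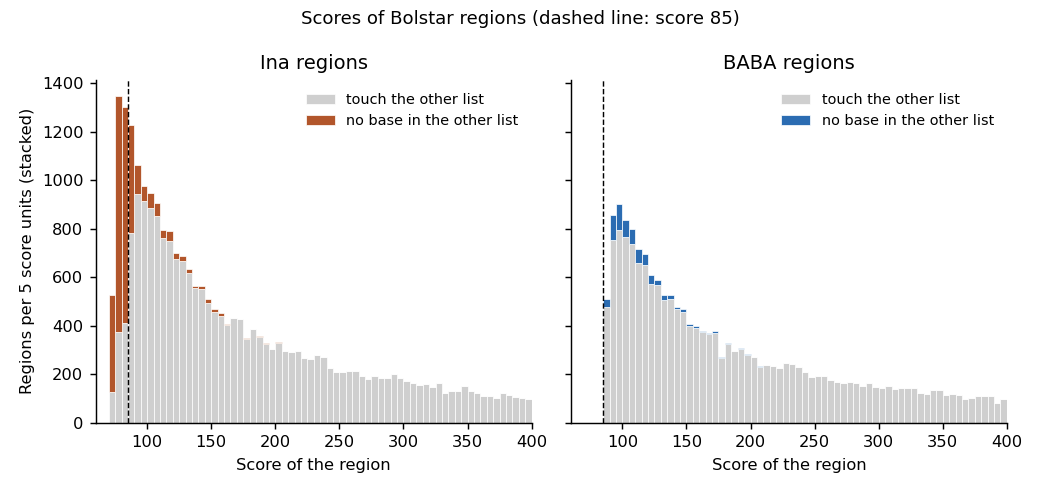
Numbers of Bolstar regions by score, in classes of 5 score units up to 400, for the Ina list (left) and the BABA list (right); grey bars are regions that touch the other list and coloured bars, stacked on them, regions with no base in it. The dashed line marks a score of 85, where the BABA list begins; 2256 of the 3224 coloured Ina regions lie to its left.

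The Ina-only regions had a median length of 5.50 kb and a median score of 81, against 11.5 kb and 187 for the Ina regions that touched the BABA list. The BABA-only regions were longer, with medians of 7.66 kb and 106, against 12.8 kb and 209 for the BABA regions that touched the Ina list. At scores of 85 or more in both lists the gap was smaller, with medians of 6.47 kb and 91 for Ina-only and 7.67 kb and 106 for BABA-only regions. A score of 200 or more was reached by 8 Ina-only and 7 BABA-only regions. Sites were less dense in regions without a counterpart, at a median of 14.8 per kb for Ina-only and 13.8 for BABA-only regions, against 16.2 and 16.3 for the others. Of the Ina-only regions, 733 (22.7%) lay within 1 kb of a BABA region. Of the BABA-only regions, 170 (26.4%) lay within 1 kb of an Ina region.

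The bases listed in 1 treatment only came from different places in each list. Of the 24.7 Mb found only in Ina, 74.0% lay in whole regions without a counterpart, 23.0% at the edges of regions that both lists hold, and 3.02% in gaps inside an Ina region that the BABA list interrupts. Of the 19.7 Mb found only in BABA, 26.0% lay in whole regions, 59.7% at edges and 14.4% in inner gaps. Keeping regions of 85 or more in both lists brought the Ina-only share in whole regions down to 51.3% of 12.8 Mb, with 42.9% at edges and 5.81% in gaps. The BABA-only shares were then 32.8%, 56.0% and 11.2%. In the Moneyberg lists of the same treatments and window, 13.9 Mb were only in Ina and 14.9 Mb only in BABA, and the kinds were alike on both sides, with 41.0% and 40.6% in whole regions, 51.4% and 51.8% at edges and 7.58% and 7.68% in gaps. There, 3.06% of Ina and 2.91% of BABA regions were without a counterpart. At scores of 85 or more the Moneyberg shares were 2.6% and 3.25%. The lower limits of these Moneyberg lists were 68 and 69, closer than in Bolstar.

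**Figure D2:**
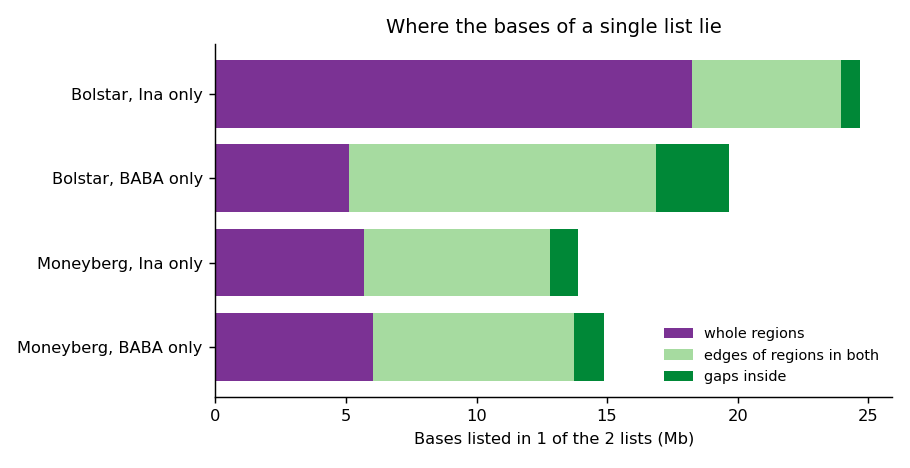
Megabases listed in only 1 of the Ina and BABA lists, as deposited, for each cultivar, split into whole regions without a counterpart, edges of regions that both lists hold, and gaps inside a region. Whole regions make up most of the Bolstar Ina-only bar (74.0%) and edges most of the Bolstar BABA-only bar (59.7%), while both Moneyberg bars are split alike. At scores of 85 or more, not drawn, the Bolstar Ina-only share in whole regions was 51.3%.

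Regions that stand whole in the BABA list were often in pieces in the Ina list. Each overlap group, a chain of regions linked by shared bases, was sorted by how many regions of each list it holds. A simple pair of 1 Ina and 1 BABA region made up 17584 of the 25760 groups. In 2932 groups 1 BABA region faced several Ina regions, and in 624 groups 1 Ina region faced several BABA regions, a ratio of 4.70. From a score of 85 up the numbers were 2588 and 655, a ratio of 3.95. In Moneyberg they were 1627 and 1558, a ratio of 1.04.

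Counted by region, 3900 BABA regions (16.1%) spanned at least 2 Ina regions, 3120 of them exactly 2, 581 of them 3, and 199 of them 4 or more. In the other direction 1479 Ina regions (4.92%) spanned at least 2 BABA regions, and none more than 5. The breaks were short. The 4954 Ina gaps inside BABA regions had a median of 180 bases, and 89.1% were 1 kb or less. The 1615 BABA gaps inside Ina regions had a median of 167 bases, and 89.5% were 1 kb or less. The control list closed 54.9% of the former and 56.5% of the latter.

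The most divided example lies on chromosome 6, where the BABA list has 1 region from 22548583 to 22655045, of 106 kb and score 1724. The Ina list has 12 regions along it, with gaps of at most 2800 bases. On chromosome 7, a BABA region of 167 kb from 34767078 to 34934383 (score 2950) faced 7 Ina regions, none of them more than 640 bases apart. In the other direction, an Ina region of 60.8 kb on chromosome 12, from 18418851 to 18479601 (score 885), faced 5 BABA regions. Positions are counted from 1, whereas the lists count from 0, so each start printed is the listed start plus 1. No source used here names their genome build, and no gene is therefore named.

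Where 1 Ina region faced 1 BABA region, most had exactly the same ends. Of the 17584 pairs, 11279 had both boundaries identical to the base, which is 64.1% (63.4% to 64.8%). In 29.8% of pairs 1 boundary was identical and in 6.05% neither was. Moved boundaries numbered 7369. At 4670 of them the BABA region reached further out, by a median of 1052 bases, and at 2699 (36.6%) the Ina region did, by a median of 374 bases. In Moneyberg 70.7% of 23559 pairs were identical at both ends, and the Ina region was the wider at 48.5% of the moved boundaries.

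The 3 pairs with the farthest moves show how far a boundary could shift. On chromosome 9 the Ina region from 37222363 to 37246561 (score 210) ends 19.9 kb beyond the BABA region from 37216984 to 37226656 (score 126). Also on chromosome 9, the Ina region from 11595024 to 11623987 (score 294) begins 19.7 kb before the BABA region from 11614745 to 11629546 (score 163). On chromosome 4 the Ina region from 27549775 to 27556257 (6.48 kb, score 74) shares its start with a BABA region that runs 17.5 kb further, to 27573779 (score 291).

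Chromosomes 6 and 9 stood apart from the other 10. The Jaccard index, the bases in both lists divided by the bases in either, was 0.906 over the genome (428 Mb shared). It was 0.515 on chromosome 9 and 0.836 on chromosome 6, and 0.912 to 0.944 on the other 10 chromosomes. With the limit of 85 they were 0.517, 0.853 and 0.925 to 0.952. In Moneyberg chromosome 9 was also low, at 0.568, whereas chromosome 6 gave 0.964, within 0.949 to 0.964 for the other 10. Indices of Bolstar Ina and of Bolstar BABA with the control list they share were 0.853 and 0.862 on chromosome 6 and 0.558 and 0.534 on chromosome 9.

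**Figure D3:**
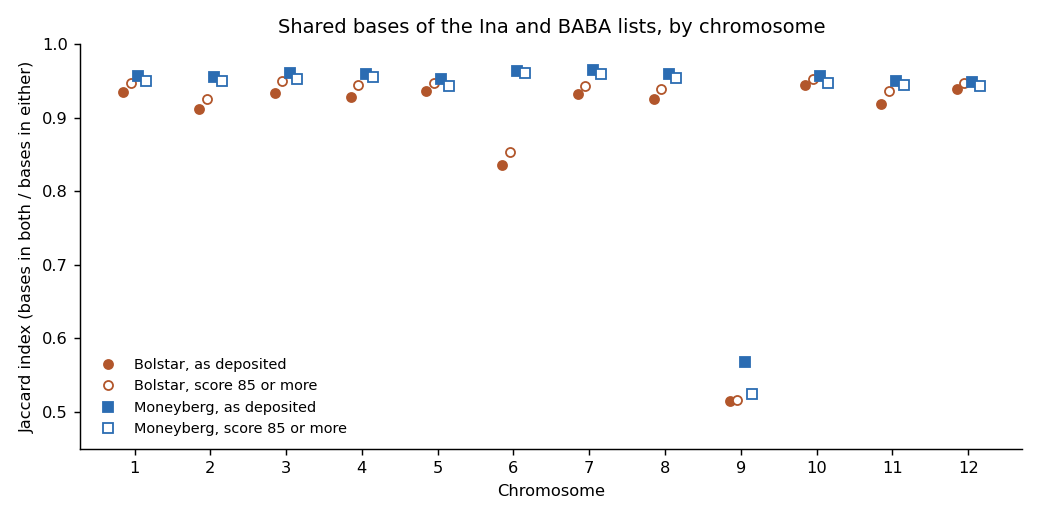
Jaccard index of the Ina and BABA lists (vertical axis, from 0.45) for each of the 12 chromosomes, in Bolstar (circles) and Moneyberg (squares), as deposited (filled) and at scores of 85 or more (open). Chromosome 9 is low in both cultivars, and chromosome 6 is low in Bolstar, at 0.836, but not in Moneyberg, at 0.964.

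Chromosome 9 held 25.7% of all bases found in only 1 of both treatments but 2.82% of the shared bases. Of its 2204 Ina regions 637 had no BABA base (28.9%), and of its 1703 BABA regions 262 had no Ina base (15.4%), which is 40.7% of all BABA-only regions. On chromosome 6, 271 of 2014 Ina regions (13.5%) and 46 of 1563 BABA regions (2.94%) were without a counterpart. On the other 10 chromosomes the shares were 7.41% to 10.3% for Ina and 1.05% to 2.19% for BABA. With the limit of 85, chromosome 6 had 99 Ina-only (5.66%) and 76 BABA-only regions (4.86%), and chromosome 9 had 379 (21.2%) and 358 (21.0%). The shares on the other 10 chromosomes were then 1.42% to 2.57% for Ina and 2.01% to 3.36% for BABA. Moneyberg chromosome 9 gave 15.8% for Ina and 21.5% for BABA as deposited, and 18.3% and 26.3% with the limit.

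Boundaries followed the same split. Both ends were identical in 25.2% of the 1054 pairs on chromosome 9, 47.6% of the 890 pairs on chromosome 6 (44.4% to 50.9%), and 67.7% of the 15640 pairs elsewhere. In Moneyberg, 75.1% of pairs on chromosome 6 and 33.6% of 1360 pairs on chromosome 9 were identical at both ends. The median moved boundary in Bolstar shifted by 1744 bases on chromosome 9, 922 on chromosome 6 and 635 elsewhere. In Moneyberg these medians were 1239, 326.5 and 581 bases.

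Even where an interval was identical to the base, the score could differ between the treatments. Of the 11279 identical intervals, 91.1% had the same score in both lists, and 704 of the other 1007 differed by 1. On chromosome 6 the share with the same score was 61.1% of 424 intervals and on chromosome 9 it was 65.4% of 266, against 87.3% to 95.6% on the other 10 chromosomes. The BABA score was the higher in 121 of the 165 differing intervals on chromosome 6 and the Ina score in 44. Over the genome these numbers were 646 and 361. In Moneyberg 95.8% of 1059 identical intervals on chromosome 6 had the same score. On its chromosome 9 the share was also low, at 71.6% of 457, against 85.7% to 96.9% on the other 10 chromosomes. Over the Moneyberg genome the BABA score was the higher in 576 intervals and the Ina score in 533.

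Windows of 5 Mb, taken on the lists as deposited, located these differences along the chromosomes. On chromosome 6 the window indices ran from 0.707 to 0.876, and in all 10 windows the Bolstar value lay below the Moneyberg value, whose range was 0.919 to 0.977. Scores of identical intervals changed along this chromosome. From 10 to 30 Mb, a stretch chosen after its values were seen, 36.1% of 169 identical intervals had the same score in Bolstar, against 96.1% of 512 in Moneyberg. From 35 to 50 Mb the shares were 94.9% of 98 and 97.3% of 188. Listed bases were few there, at 8.94% to 22.0% of a window under Ina and at most 19.0% under BABA, and the index was at its lowest, 0.707 to 0.778.

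On chromosome 9 the 11 windows from 5 to 60 Mb, also chosen after their values were seen, had indices of 0.386 to 0.555 in Bolstar and 0.408 to 0.587 in Moneyberg. The 4 windows outside that stretch gave 0.709 to 0.757 and 0.824 to 0.933. On the other 10 chromosomes the median window index was 0.940 in Bolstar and 0.958 in Moneyberg, and Bolstar was the lower in 123 of 136 windows. The 42 windows with under 50% of their bases in the Ina list had a median of 0.800, and the 94 windows with more had 0.944. In Moneyberg the same windows had medians of 0.921 and 0.963.

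**Figure D4:**
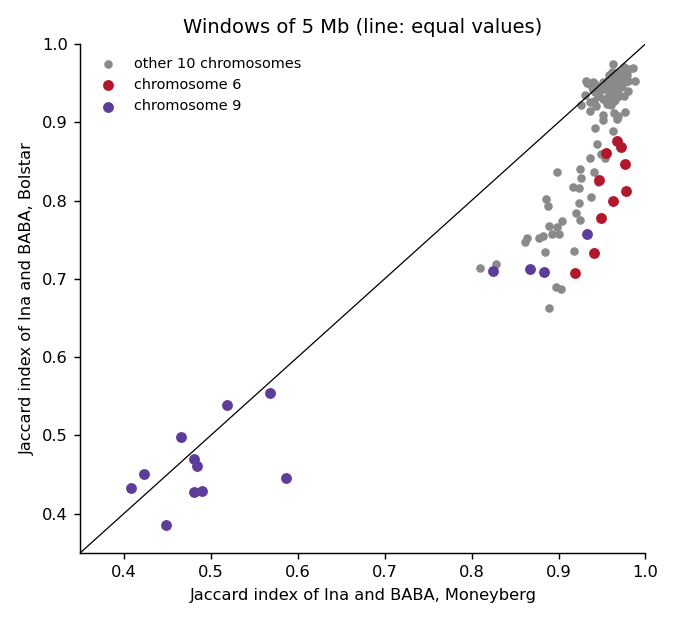
Jaccard index of the Ina and BABA lists, as deposited, in windows of 5 Mb, Bolstar (vertical axis) against Moneyberg (horizontal axis). Chromosomes 6 and 9 are coloured, both axes begin at 0.35 and the line marks equal values. All 10 windows of chromosome 6 lie below the line, at 0.707 to 0.876 in Bolstar, and 11 windows of chromosome 9 are low in both cultivars.

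The ends of the chromosomes differed more than the interior. Without chromosomes 6 and 9, 22.0% of Ina regions in the first 5 Mb and 27.7% in the last 5 Mb had no BABA base, against 7.48% in the interior. For BABA regions the shares without an Ina base were 4.88%, 4.98% and 1.30%. At scores of 85 or more the ends were still higher on both sides, at 6.27% and 8.24% for Ina against 1.69% in the interior, and at 7.50% and 8.88% for BABA against 2.25%. The shares in Moneyberg at that limit were 4.67% and 3.73% against 1.46% for Ina, and 5.04% and 5.45% against 1.49% for BABA.

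By bins of 1 Mb on the same 10 chromosomes, the Ina list covered more than the BABA list in 41 of 50 bins of the first 5 Mb and in 44 of 50 bins of the last 5 Mb, with median differences of 2.45 and 1.64 percentage points. In the 585 interior bins the median difference was 0.07 points, with Ina higher in 303 and BABA in 267. The direction at the ends did not hold at scores of 85 or more. There the Ina list covered more in 17 and 23 of the 50 bins at each end, and in 88 of 585 interior bins.

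As deposited, the control list held about equal shares of the bases that each treatment listed alone, whereas from a score of 85 up it held more on the Ina side. Of the bases listed in both treatments 98.2% were also in the control. Of the Ina-only bases 51.1% were in the control, and of the BABA-only bases 53.1%. By chromosome, without 6 and 9, these shares ran from 47.7% to 55.6% and from 49.5% to 58.8%. On chromosome 6 they were 52.7% and 63.5%, and on chromosome 9 they were 50.4% and 48.0%. The control's lower limit of 78 lies midway between those of the treatments. Counted by region, 1615 Ina-only regions (50.1%) and 347 BABA-only regions (54.0%) touched the control. With Ina and BABA regions of 85 or more, set against the control as deposited, 693 of 968 Ina-only regions (71.6%) and 604 of 1005 BABA-only regions (60.1%) touched it. The order was the same over the 10 chromosomes other than 6 and 9, with 392 of 490 against 329 of 571, and it was the reverse on chromosome 6, at 67.7% and 77.6%. Chromosome 9 gave 61.7% and 60.3%. In bases the control then held 60.4% of the Ina-only and 56.5% of the BABA-only sequence, with the Ina-only share the higher on 10 of the 12 chromosomes.

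As deposited, the Moneyberg lists held Ina-only bases more often than BABA-only bases, an order that did not hold over the genome from a score of 85 up. All 5 Moneyberg lists contained 53.4% of the Ina-only and 39.9% of the BABA-only bases, and 90.7% of the bases in both. On each of the 12 chromosomes the Ina-only share was the higher. Outside chromosomes 6 and 9 it was 56.1% to 70.8%, and the BABA-only share was 41.0% to 56.2%. Chromosome 6 had the highest shares, 83.2% and 73.7%, and chromosome 9 the lowest, 18.8% and 10.0%. The lower limits of the Moneyberg lists were 65 to 71, at or below that of Bolstar Ina and below that of Bolstar BABA. With Ina and BABA regions of 85 or more, set against the Moneyberg lists as deposited, all 5 held 43.6% of the Ina-only and 45.2% of the BABA-only bases. The Ina-only share was then the higher on 10 of the 12 chromosomes, all but 2 and 12, and outside chromosomes 6 and 9 the shares were 56.02% and 53.0%.

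Counted by region, 2088 Ina-only regions (64.8%) touched all 5 Moneyberg lists and 358 touched none. Of the BABA-only regions 249 (38.7%) touched all 5 and 107 none. The gap was smaller from a score of 85 up, where 529 of 968 Ina-only regions (54.6%) and 490 of 1005 BABA-only regions (48.8%) touched all 5. On chromosome 6 the 5 lists were all touched by 86.7% of the 271 Ina-only and 78.3% of the 46 BABA-only regions. At scores of 85 or more they were touched by 91 of its 99 Ina-only regions (91.9%) and by 64 of its 76 BABA-only regions (84.2%). Regions found in no other list of the series numbered 236 for Ina and 68 for BABA, which is 7.32% of the Ina-only and 10.6% of the BABA-only regions. The order of the numbers turned with Ina and BABA regions of 85 or more. Those absent from the control and Moneyberg lists as deposited then numbered 43 for Ina (4.44%) and 76 for BABA (7.56%).

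**Figure D5:**
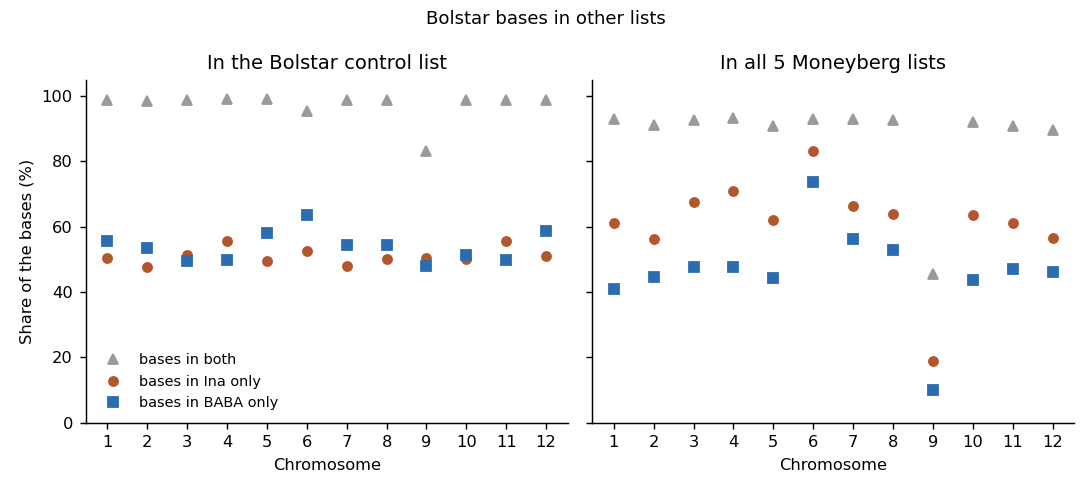
Share of Bolstar bases in percent, by chromosome and as deposited, that are also in the Bolstar control list (left) and in all 5 Moneyberg lists (right), for bases in both treatments (triangles), in Ina only (circles) and in BABA only (squares). Circles and squares mix near 50% on the left, whereas on the right every circle is above its square, highest on chromosome 6 and lowest on chromosome 9.

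The regions without a counterpart that had the highest scores lay mostly on chromosome 9. Of the 10 leading Ina-only regions 7 were there and 2 on chromosome 6, with scores of 197 to 308, and of the 10 leading BABA-only regions 6 were there, with scores of 193 to 262. The control list touched 8 of the former and 7 of the latter, and all 5 Moneyberg lists touched 8 and 6. Each of the 20 touched at least 1 Moneyberg list.

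Several of them show particular features. The Ina-only region on chromosome 6 from 11640557 to 11644238 packs a score of 281 into 3.68 kb, or 76.3 per kb, and lies 2.81 kb from the nearest BABA region. The control and all 5 Moneyberg lists touch it. The BABA-only region on chromosome 11 from 17950657 to 17952508 is shorter still, with a score of 193 in 1.85 kb, or 104 per kb, and is also touched by the control and by all 5 Moneyberg lists. Both are several times denser than the list average.

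A pair of BABA-only regions lies on chromosome 1, from 10693503 to 10705733 (score 218) and from 10874163 to 10889466 (score 204). Neither touched the control list, and they touched 4 and 2 of the Moneyberg lists. The bin from 10 to 11 Mb that holds them had the widest difference on the BABA side, with 66.0% of its bases listed under Ina, 77.0% under BABA, 72.2% in the control, and 69.0% to 75.7% in the Moneyberg lists. On chromosome 9 the bin from 56 to 57 Mb had 17.7% under Ina and 27.8% under BABA, with 31.1% in the control. On chromosome 11 the bin from 21 to 22 Mb had 72.7% and 79.0%, with 71.2% in the control.

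The widest differences on the Ina side were all on chromosome 9. The bin from 47 to 48 Mb had 33.4% listed under Ina and 23.8% under BABA, that from 23 to 24 Mb 20.1% and 11.2%, and that from 40 to 41 Mb 34.8% and 26.0%. The control stood at 31.4%, 14.8% and 38.9% in these bins, nearer to Ina in the first and the last and nearer to BABA in the other. In Moneyberg the Ina list was below the BABA list in all 3.

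The longest unbroken runs of bases listed in 1 treatment only also came from these chromosomes. The longest Ina-only run was a whole region on chromosome 6, from 11442608 to 11466492, of 23.9 kb and score 148. The control list had no base of it, and each Moneyberg list covered 80.3% to 97.5% of it. A second whole Ina-only region on chromosome 6, from 7588888 to 7607799 (18.9 kb, score 132), was likewise absent from the control list and covered completely by each Moneyberg list. The other 3 of the 5 longest Ina-only runs were on chromosome 9.

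All 5 of the longest BABA-only runs were on chromosome 9. The longest, from 60290426 to 60311450, measured 21.0 kb with a score of 233, and the control list covered 62.5% of it. The third, from 6392663 to 6411711 (19.0 kb, score 208), was covered completely by the control, and each Moneyberg list covered 36.4% to 69.9% of it. Most runs were much shorter. The 8405 Ina-only runs had a median of 1992 bases and the 11614 BABA-only runs one of 470, and 182 and 187 of them reached 10 kb.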

How the data were processed

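Seed DNA of the Bolstar Ina, BABA and control groups and of 5 Moneyberg groups was bisulfite sequenced. DNA was extracted with a Zymo plant and seed kit and sequenced in pairs on a NovaSeq instrument after low-input Methyl-Seq library preparation, per the labels' protocols. Reads were trimmed with Trim Galore, per the submitters' processing notes. No source used here names the aligner, region caller, genome build, cytosine context or manner of pooling. The authors deposited 1 list per group with 6 columns and no header, in which column 5 holds a whole-number score. How that score was made is not stated.

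The lists were compared with interval arithmetic in Python 3.11.15 with numpy 2.4.6, pandas 2.3.3 and scipy 1.17.1, checked against base-by-base counts on simulated lists. At least 1 shared base counted as touching. Chromosome ends were taken as the last listed base, and bins of 1 Mb or windows of 5 Mb shorter than 50% of their size were left out. Regions named are the 10 with the highest score in each direction, the 5 longest runs and the 3 bins with the widest difference, besides the widest spans and boundary moves. Lists and quantities were chosen with earlier results of these data known. The common score limit of 85 is the lowest score of the BABA list. Alternatives were another limit, merging of neighbours, stricter overlap, a distance of 1 kb, a boundary tolerance and leaving out a chromosome. Wilson intervals are at 95%. With pooled lists there is no replicate to leave out and no p-value.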

Additional observations from a re-analysis of the deposited data

Results flagged for a closer look

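Several net differences between Ina and BABA in time window 2, as deposited, had opposite signs in Bolstar and in Moneyberg. With 1 list per group, none of these differences between the cultivars was tested. The bases listed only in Ina less those only in BABA came to 5.01 Mb in Bolstar and -1.005 Mb in Moneyberg. On chromosome 9 that difference was 1.57 Mb in Bolstar and -1.87 Mb in Moneyberg, and the number of regions without a counterpart, Ina less BABA, was 375 and -154. BABA regions that span several Ina regions, less the reverse, numbered 144 on chromosome 6 in Bolstar and -29 in Moneyberg, and 101 and -10 on chromosome 9. The Bolstar lists differ in their lower limit on the score (71 and 85) more than the Moneyberg lists do (68 and 69). At scores of 85 or more in every list the differences in bases no longer had opposite signs, at -11.5 Mb in Bolstar and -2.21 Mb in Moneyberg over the genome and at -0.732 Mb and -1.96 Mb on chromosome 9. The other 3 kept opposite signs at that limit. Regions without a counterpart on chromosome 9 came to 21 in Bolstar and -172 in Moneyberg. The spanning difference was 101 and -26 on chromosome 6 and 50 and -16 on chromosome 9.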

How the results depend on the processing

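Of 40 alternative values, 16 were classed as the same as those reported and 24 as moved. A count was classed as moved when it differed by a factor of 1.5. The rule was narrower for the Jaccard index, where 0.908 against 0.906 was classed as moved. The causes were not tested unless the alternative itself removes regions. Ina-only and BABA-only regions numbered 3224 and 643 as deposited. They were 968 and 1005 at scores of 85 or more in both lists, 968 and 643 when such regions were set against the other list as deposited (an alternative chosen after seeing the data), and 8682 and 2762 under a reciprocal overlap of 50%. Ina-only regions numbered 2046 at or above each list's median score, and BABA-only regions 381 without chromosome 9. The Jaccard index was 0.919 at 85 or more, 0.835 above the median, 0.908 after merging neighbours within 1 kb, 0.927 without chromosome 9 and 0.910 without chromosome 6. On chromosome 6 it was 0.853, 0.677 and 0.840 in the first 3 of these settings. Identical pairs made up 54.5% above the median, 62.2% after merging, 66.6% without chromosome 9, 65.0% without chromosome 6 and 72.9% with a tolerance of 200 bases. Spanning BABA regions numbered 1765 above the median and 1356 after merging, and spanning Ina regions 607 and 635. In each of these settings more BABA than Ina regions spanned several of the other list. No paired analysis was possible because each group has 1 pooled list.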
